A study of Mus musculus with 249 samples.

Results

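The windows described here are the telomere-proximal ends of the 19 autosomes of mouse embryonic stem cells. They were the 40 kb windows whose start lay within 5 Mb of the last listed base of the chromosome, at the end away from the centromere. There were 2375 such terminal windows, 125 per chromosome, among 61816 autosomal windows and 68162 windows in all. They were set against the 2375 interior windows that start 20 to 25 Mb from the same end, and, where stated, against the 2375 centromere-proximal windows, the 5 Mb that begin at 3 Mb or, where later, at the first window positive in any library.

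Genome architecture mapping (GAM) cuts nuclei into thin cryosections, isolates the slices by laser microdissection and sequences their DNA, and proximity is read from how often loci share a slice. All libraries came from 46C cells, a Sox1-GFP knock-in line derived from E14tg2a, grown with LIF and re-plated in serum-free medium before harvest, with no treatment of the living cells. The sample titles gave 4 nuclear profiles per tube, taken from different cells, and the series description gave a lower average. The labels placed the libraries in 11 experiments on sample handling, with 20 groups. Of these, wga-reagent-volumes compared protocol_a (10 libraries), protocol_b (11) and protocol_c (10). The pk-volume-titration experiment compared the arms 1ul-mdc-pk (5) and 2ul-mdc-pk (6), named after the sample titles, whose volumes differ from those in the protocol text. The experiment on PCR cycles compared 20 (4 libraries), 23 (5) and 25 (3) PCR cycles, and large-vs-small-kit compared the large (11) with the small kit (12). The freezing experiments compared libraries frozen post incubation (10) with unfrozen ones (11), and early (12) with late freezing (11). The cresyl-violet experiment compared stained (16) with unstained (10) sections. The other libraries, which had 1 arm each, were the unstained ones of the pi-staining-and-freezing (20), eosin (18) and sybrgold (10) experiments and the full-collection-4np set (54). The titles call the sybrgold libraries unstained, whereas their protocol text describes staining with SYBR Gold, and the conflict was not settled. All libraries stem from one cell line, and nothing in the labels gives separate cultures, so the p-values measure the spread between these libraries, which may be technical.

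Telomeres are the caps of linear chromosomes. In mammals they consist of tandem TTAGGG repeats that are bound by the shelterin complex and extended by telomerase. Mouse autosomes are telocentric, so that the centromere lies beside one telomere and only the distal telomere adjoins gene-bearing sequence. In meiotic prophase telomeres gather at the nuclear envelope as the bouquet. In cycling cells telomeres are known to move over short ranges and to meet in transient clusters. The telomere itself is repetitive and is mostly absent from a genome assembly, so that the measured windows are the subtelomeric sequence next to it.

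The assembled sequence of the ends was read from the reference. The last 120 bases of 3 ends are shown because chromosome 10 had the highest difference in detection between end and interior, and chromosomes 17 and 13 were among the lowest. All are plus-strand reference bases of mm9 (NCBIM37), written 5′ to 3′ toward the telomere, and a TTAGGG or, on the opposite strand, a CCCTAA would stand in capitals.
chromosome 10, chr10:129993136-129993255: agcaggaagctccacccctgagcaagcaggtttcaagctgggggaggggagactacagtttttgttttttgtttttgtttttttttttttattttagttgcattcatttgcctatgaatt
chromosome 17, chr17:95272532-95272651: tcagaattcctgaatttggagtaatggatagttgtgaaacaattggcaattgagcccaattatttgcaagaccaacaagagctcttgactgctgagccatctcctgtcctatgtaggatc
chromosome 13, chr13:120284193-120284312: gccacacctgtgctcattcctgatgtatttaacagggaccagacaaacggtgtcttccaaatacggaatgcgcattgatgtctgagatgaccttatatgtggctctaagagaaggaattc
These 3 sequences held 0 copies of the repeat and do not stand for all ends, since the last windows of 6 chromosomes held a tract of it.

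Telomere-like tracts were found in a small share of terminal windows. A tract was defined as at least 3 exact copies of TTAGGG in tandem on either strand (as TTAGGG or CCCTAA, so that the 2 motifs describe one sequence). Of the terminal windows, 51 (2.15%) held a tract, against 7 interior windows (0.295%), 16 centromere-proximal windows (0.674%) and 349 of all autosomal windows (0.565%). The share declined with the distance from the end, from 3.37% of the windows in the outermost 1 Mb to 1.26% between 4 and 5 Mb. The 79 terminal tracts lay on 18 of the 19 chromosomes, with none in the terminal windows of chromosome 7. Tract windows as a set were positive in 0 to 67 libraries, with a median of 50.0, and terminal windows without a tract in 0 to 188, with a median of 52. A match to these letters is a description of the reference sequence, and the length of the telomeres of these cells was not measured.

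Terminal and interior windows were detected in nearly equal shares. A window was called positive in a library by the authors when it held enough reads, so that detection means the percent of a set's windows that were positive. Per library it was 20.7% ± 9.66 for terminal windows (SD over all libraries; lowest 2.99%, median 19.6%, highest 52.5%) and 20.9% ± 9.55 for interior windows (3.79%, 19.6% and 54%). The distributions overlapped almost entirely. The mean difference, terminal minus interior, was -0.242 percentage points (SE 0.328, 95% interval -0.886 to 0.401), with terminal detection higher in 119 libraries, lower in 129 and equal in 1 (sign-flip permutation test over the libraries, two-sided, p = 0.464, adjusted over the 6 planned contrasts 0.880). A p above the threshold does not show equality, and the interval leaves more room for lower than for higher terminal detection. All autosomal windows together were at 19.4% ± 8.16, a mean that includes 2177 windows never positive, against 8 never positive at the ends. The measured difference also depended on which interior was used. Against windows 40 to 45 Mb from the end, terminal detection was higher by 0.756 percentage points (permutation p = 0.0391, adjusted 0.235).

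By steps of 1 Mb along the last 30 Mb, detection ran from 19.4% to 21.7%, highest between 7 and 8 Mb from the end, and the outermost step, at 20.8% ± 0.653 (SE over libraries), lay within this range. GC content was lowest in the outermost 1 Mb (41.8%) within the terminal 5 Mb and rose to 45% between 2 and 3 Mb, and its highest step over the last 30 Mb (45.5%) was also that between 7 and 8 Mb. Over all terminal windows it was 43.8%, against 43.4% in the interior and 41.9% over all autosomal windows. Gene density was above that of the autosomes at both places. Terminal windows held 1144 starts of protein-coding genes (12 per Mb) and interior windows 1194 (12.6 per Mb), against 8.66 per Mb over all autosomes.

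**Figure D1:**
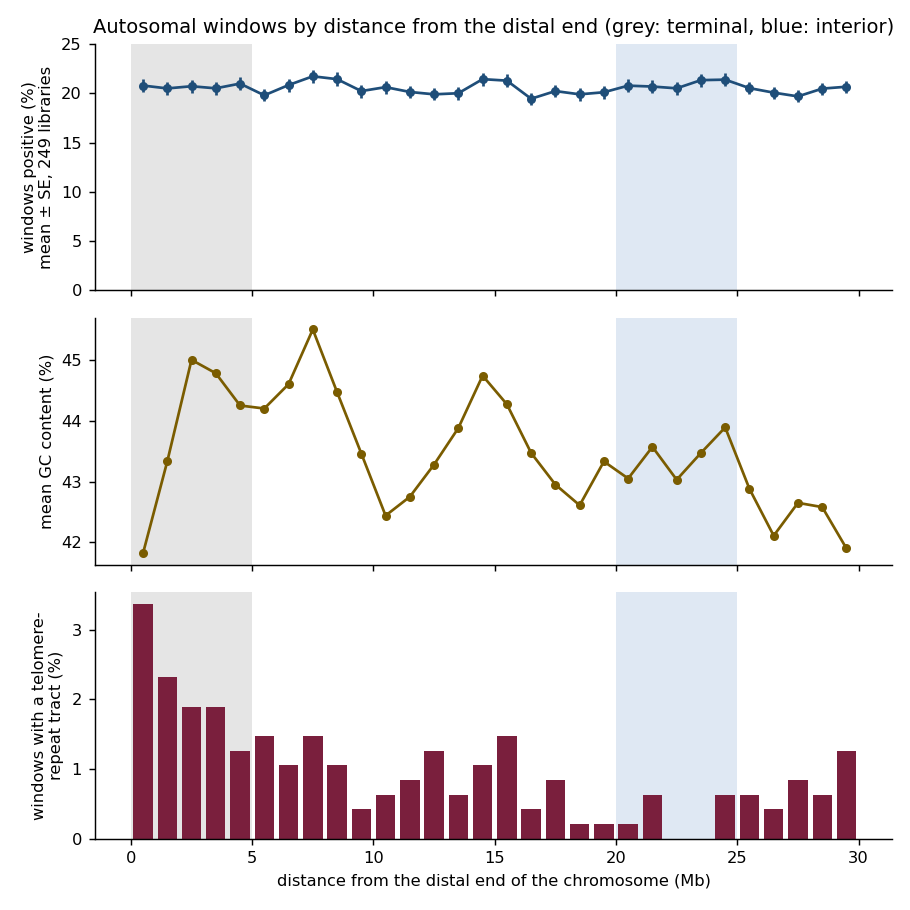
Autosomal windows by distance from the distal end in steps of 1 Mb: detection (percent of windows positive, mean ± SE over libraries), mean GC content (percent, axis not from 0) and the percent of windows with a tract of at least 3 telomere repeats. Grey marks the terminal 5 Mb and blue the interior windows. Detection stays between 19.4% and 21.7%, and the tract share is highest in the outermost step at 3.37%.

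Counting whole ends gave the same picture. An end was called present in a library when at least 25% of its 125 windows were positive. A library held 6.79 ± 3.73 of the 19 ends (SD over all libraries; lowest 0, median 7.0, highest 18) and 6.87 ± 3.75 of the 19 interior segments (0, 7.0 and 17). No end was present in 9 libraries, and no interior segment in 7. The difference was -0.0763 ends (95% interval -0.391 to 0.239; higher in 94, lower in 108 and equal in 47 libraries; sign-flip permutation p = 0.655, adjusted 0.880). The end of chromosome 11 was present most often, in 109 libraries, and that of chromosome 19 least often, in 75.

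The single ends ranged from 17.6% to 23.6% in detection. The most detected ends were those of chromosome 4 (23.6%), chromosome 11 (23.4%) and chromosome 15 (23.3%), and the least detected were those of chromosome 17 (17.6%), chromosome 19 (18.2%) and chromosome 3 (18.4%). In single libraries each end ran from 0% to between 78.4% and 96.0%. The order ran with base composition. Across the 19 ends, detection and GC content had a Pearson r of 0.801 and a Spearman rho of 0.799, given as a description, since the ends share all libraries. Gene starts and detection had an r of 0.632. In the lowest of 3 equal bins of GC content (below 39.6%), terminal windows were positive in 18.7% and interior windows in 17.4%, and in the highest bin (above 43.4%) in 22% and 22.6%.

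Each end was next set against its own interior. Terminal detection was higher on 10 of the 19 chromosomes. On chromosome 10 the terminal windows were at 19.9% (lowest library 0%, median 12.8%, highest 84.8%) and the interior windows at 15.4%, a difference of 4.57 percentage points (SE 1.17; 130 libraries higher, 89 lower, 30 equal). This end held 163 gene starts and 43.2% GC, and its interior 15 gene starts and 38.7% GC. Chromosome 14 (19.7% against 17.8%, difference 1.83, SE 1.32) and chromosome 9 (22.4% against 20.6%, difference 1.75, SE 1.52) followed. Their size depended on the setting. The difference of chromosome 14 was 5.08 against windows 10 to 15 Mb from the end (unadjusted permutation p = 0.00026) and 2.91 against those 40 to 45 Mb from it (p = 0.0424), but 0.266 with ends and interiors of 2.5 Mb (p = 0.866) and 0.944 after the detection expected from GC content was subtracted (p = 0.478). That of chromosome 9 was 4.44 against windows 40 to 45 Mb from the end (p = 0.00326), -0.681 against windows 10 to 15 Mb from it (p = 0.653) and 1.05 after this subtraction (p = 0.492). The lowest difference was on chromosome 18, where terminal windows were at 18.6% (0%, 11.2% and 84.0%) and interior windows at 23.0%, a difference of -4.42 (SE 1.38; 102 libraries higher, 128 lower, 19 equal). Here the end was the poorer side, with 8 gene starts and 37.5% GC against 37 gene starts and 42.5% GC. On chromosome 17 the end was at 17.6% and the interior at 21.3% (difference -3.75, SE 1.37), and on chromosome 13 at 20.6% and 23.6% (difference -2.94, SE 1.45). The difference of chromosome 13 was 1.29 against windows 40 to 45 Mb from the end (unadjusted permutation p = 0.387) and -0.423 after the expectation from GC content was subtracted (p = 0.768). Across the 19 chromosomes the difference in detection and the difference in GC content had an r of 0.704 and a rho of 0.583.

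Of the 19 differences, those of chromosome 10 (adjusted p = 0.00145), chromosome 18 (adjusted p = 0.0120) and chromosome 17 (adjusted p = 0.0346) passed a sign-flip permutation test adjusted over all 411 pairs of segments 20 Mb apart on one autosome. These are 3 of 19 ends, against 21.7% called among all such pairs (89 of 411), a share near the background. The median size of the difference was 1.70 percentage points at the ends and 1.91 over all pairs. The difference on chromosome 10 was not kept against other interiors. It was -1.40 against windows 10 to 15 Mb from the end and -0.157 against those 40 to 45 Mb from it. After subtraction of the detection expected from GC content it was 2.77 (unadjusted permutation p = 0.0172), and those of chromosomes 18 and 17 were -1.98 (p = 0.147) and -1.02 (p = 0.453). With ends and interiors of 2.5 Mb none of the 3 was under an unadjusted p of 0.05, with differences of 2.27 on chromosome 10 (p = 0.130), -0.357 on chromosome 18 (p = 0.838) and -2.89 on chromosome 17 (p = 0.0882). Against windows 10 to 15 Mb from the end the differences were -3.39 on chromosome 18 (unadjusted permutation p = 0.0120) and -4.19 on chromosome 17 (p = 0.00173). Against windows 40 to 45 Mb from the end they were -1.96 on chromosome 18 (p = 0.216) and -3.27 on chromosome 17 (p = 0.0270). The part of base composition in these differences was not tested otherwise.

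**Figure D2:**
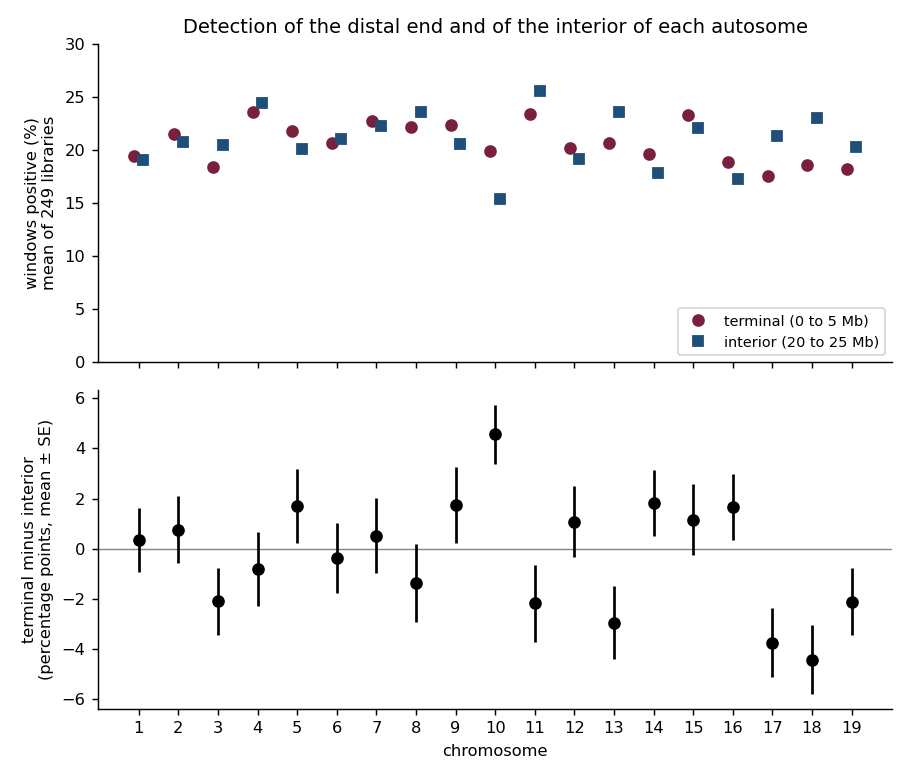
Upper panel: detection (percent of windows positive, mean of all libraries) of the terminal 5 Mb (circles) and of the interior windows (squares) of each autosome. Lower panel: the difference in percentage points (mean ± SE), highest on chromosome 10 at 4.57 and lowest on chromosome 18 at -4.42, with 10 of 19 above 0.

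Against all other autosomal windows, 4 of the 19 ends were called, all of them higher, where 18.9% of 487 segments of 5 Mb were called in either direction (92, of which 50 higher and 42 lower). These were the ends of chromosome 4 (4.22 percentage points, SE 1.31, adjusted p = 0.0131), chromosome 11 (4.00, SE 1.25, adjusted p = 0.0152), chromosome 15 (3.93, SE 1.30, adjusted p = 0.0224) and chromosome 7 (3.41, SE 1.27, adjusted p = 0.0449), by sign-flip permutation with adjustment over all segments. All 4 were rich in GC, between 47.4% and 50.0%. Counted in either direction, the share called is near the background. All 4 calls were higher, however, and of the 487 segments 50 were called higher. Of the 19 ends, 12 lay above the median of all segments. The median over the ends was 1.26 percentage points, and over all segments 0.447. None of the 4 was still called when windows never positive in any library were left out of both sides (57 segments called in all).

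Single terminal windows departed further than any whole end. Of the 2375, 2356 (99.2%) were positive in at least 25 libraries, and the median was 52 libraries, as in the interior. The most detected was chr2:181640001-181680000, 108 kb from the end of the chromosome in a window without a protein-coding gene and positive in 188 libraries (75.5%, Wilson 95% interval 69.8% to 80.4%). The next was chr9:123360001-123400000, with parts of Lars2, a mitochondrial leucyl-tRNA synthetase gene, and Limd1, a LIM domain gene, positive in 116 (46.6%, 40.5% to 52.8%). The third was chr12:116840001-116880000, positive in 93 (37.4%, 31.6% to 43.5%). The highest interior window reached 92 libraries. The least detected among windows positive in at least 25 libraries were chr1:193840001-193880000, which overlaps Traf5, a signal adaptor of the TNF receptor family, and the last windows of chromosomes 14 and 15, each positive in 25 (10.0%, 6.89% to 14.4%). The intervals cover counting error only. Why these windows stand apart was not tested.

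Of the 8 terminal windows that were never positive, 5 consisted entirely of unresolved bases (N) in the assembly. The longest such run covered 4 windows of chr16:94160001-94320000, all of them overlapping Sim2, a gene for a basic helix-loop-helix transcription factor, while a neighbouring Sim2 window with 99.0% N was positive in 1 library. For a window with sequence, a count of 0 over the libraries allows a share of up to 1.20% (3 counts). Windows below 25 libraries were rarer at the ends than over the autosomes. There were 19 of 2375 at the ends and 5 of 2375 in the interior, against 2786 of 61816 over all autosomal windows, so that 99.2%, 99.8% and 95.5% of windows reached 25 libraries. Of the 19 at the ends, 13 lay between 4 and 5 Mb from the end, on chromosomes 2, 12, 16 and 18.

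The outermost window was the one place where detection fell near the end. It was positive in 14.8% of libraries on average, the window before it in 22.3%, and the windows from the fourth to the tenth in 20.0% to 22.2%. The last window had fewer positive libraries than the next to last on 14 of the 19 chromosomes. The last windows are cut short by the end of the assembly, to between 3856 and 39783 bases, and across the 19 chromosomes their length and their number of positive libraries had an r of 0.775 and a rho of 0.774. The shortest, 3856 bases on chromosome 11, was positive in 0 libraries, whereas the full window before it was positive in 87. The 4312 bases of chromosome 13 gave 14 libraries and the 4553 bases of chromosome 7 gave 16. The longest, on chromosome 3, gave 50. The end of chromosome 5, whose last window has 17259 bases, gave 30. The mean of the third window, 25.1%, includes the chromosome 2 window with 188 libraries.

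The protein-coding gene nearest to each end gave a second view of the same sequence. The windows that held the starts of these 19 genes were positive in 14 to 87 libraries, with a median of 49, against a median of 54 over the 15127 autosomal windows with a protein-coding start. Wls on chromosome 3, which encodes the carrier that brings Wnt proteins to the cell surface, ended 0.986 kb from the last base, and its 3 windows were positive in 49 to 53 libraries. Tmem196, a transmembrane protein gene, came within 0.351 kb of the end of chromosome 12, with its 3 windows at 34 to 55. Bicd1, an adaptor of the dynein motor, lay 5.19 kb from the end of chromosome 6, with its start window at 64. Mrgprd, a receptor of sensory neurons, lay 14.6 kb from the end of chromosome 7, with 53. Klhl17, which encodes an actin-binding kelch protein, lay in the GC-rich last window of chromosome 4 (51.6% GC), positive in 23. Fgf14, a member of the fibroblast growth factor family that acts on sodium channels, spanned 18 windows at the end of chromosome 14, and these were positive in 34 to 51 libraries.

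Other genes lay within this range or at its edges. Rfc3 on chromosome 5, a subunit of the clamp loader of DNA replication, had 48 libraries. Cr2 on chromosome 1, a complement receptor, had 42. Vmn2r87 on chromosome 10, a vomeronasal receptor gene, had 59, Glycam1 on chromosome 15, a mucin-like ligand of L-selectin, 56, and Csf2ra on chromosome 19, a subunit of the GM-CSF receptor, 54. Gm9631 on chromosome 11 had the most, 87, and Gm7120, in the short last window of chromosome 13, the fewest, 14. Further ones were Gm14496 (chromosome 2, 39 libraries), 1700008F21Rik (chromosome 8, 45), B230307C23Rik (chromosome 16, 52), 2610044O15Rik (chromosome 17, 49) and Gm17635 (chromosome 18, 36).

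Linkage within the ends did not depart measurably from that within the interior. D′, the normalized linkage, is the co-segregation of a pair of windows beyond the product of their detection frequencies, divided by the largest excess those frequencies allow. Its mean over window pairs up to 4 Mb apart was 0.276 in the terminal segments (139465 pairs, windows positive in at least 25 libraries) and 0.275 in the interior segments (140939 pairs). The difference was 0.00120 (95% interval -0.0143 to 0.0167; 129 libraries contributed more to the terminal and 120 more to the interior mean; sign-flip permutation p = 0.880, adjusted 0.880). By separation, D′ went from 0.629 at the ends and 0.633 in the interior for adjacent windows to 0.322 and 0.319 at 1 Mb and to 0.188 and 0.180 at 4 Mb. The centromere-proximal segments had a mean of 0.295, given as a description. The decay of linkage with separation thus gave overlapping curves at the ends and 20 Mb further in.

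**Figure D3:**
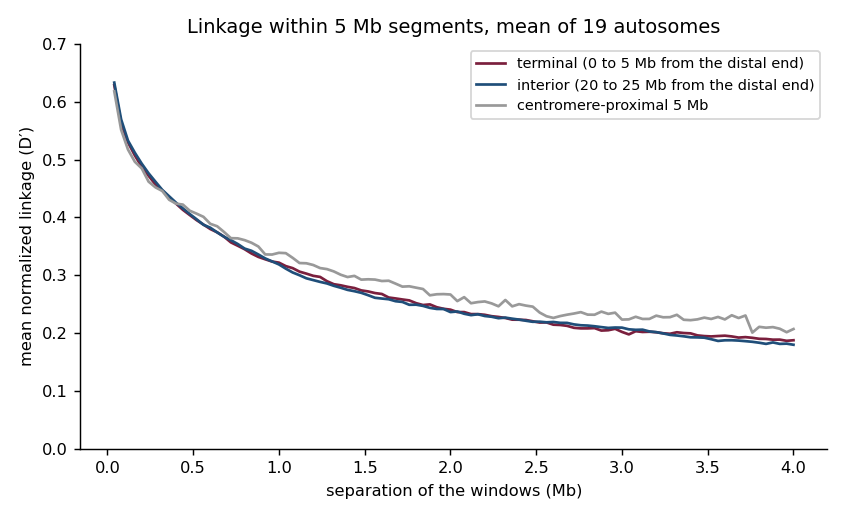
Mean D′ of window pairs within terminal, interior and centromere-proximal segments of 5 Mb, by the separation of the windows (Mb), mean of 19 autosomes. The terminal and interior curves lie on each other, from 0.629 and 0.633 at the shortest separation to 0.188 and 0.180 at 4 Mb.

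Single ends spread around this mean in both directions. The cis linkage of the ends ranged from 0.249 on chromosome 13 to 0.323 on chromosome 8, and it was above the interior value on 10 of 19 chromosomes. The highest differences were on chromosome 8 (0.323 against 0.294, difference 0.0294, SE 0.0413), chromosome 12 (0.302 against 0.274, difference 0.0284, SE 0.0330) and chromosome 9 (0.280 against 0.255, difference 0.0249, SE 0.0350). The lowest were on chromosome 13 (0.249 against 0.311, difference -0.0611, SE 0.0355), chromosome 7 (0.260 against 0.295, difference -0.0347, SE 0.0373) and chromosome 2 (0.252 against 0.272, difference -0.0208, SE 0.0361). All but that of chromosome 13 were smaller than their standard errors. Against the mean of all segments no end was called, and none of the 480 segments tested was called either (0.0%), by sign-flip permutation with adjustment over all segments. At an unadjusted p under 0.05 there were 0 of 19 ends and 22 of 480 segments (4.58%). The median deviation was -0.00348 at the ends and -0.000676 over all segments.

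Chromosome ends were then compared with each other. Here phi, the correlation of the calls of 2 windows over the libraries, was averaged over all window pairs of 2 segments. Over all pairs of segments on different autosomes the mean phi was 0.0413, and 1.12% of the pairs were below 0. Coverage of the libraries ran from 3.40% to 45.2% of all windows, and its part in this level was not tested. The ends were therefore read only against other kinds of pairs. Ends of different chromosomes had a mean phi of 0.0451 (SE 0.00532, over all pairs of the 19 autosomes), interior segments 0.0429 (SE 0.00532) and ends with interior segments of other chromosomes 0.0437 (SE 0.00506). End-to-end minus interior-to-interior linkage was 0.00221 (95% interval -0.00484 to 0.00925; higher in 137 libraries, lower in 112; sign-flip permutation p = 0.544, adjusted 0.880). End-to-end minus end-to-interior linkage was 0.00136 (-0.00265 to 0.00538; higher in 100 libraries, lower in 149; permutation p = 0.511, adjusted 0.880). With the median over libraries in place of the mean, the last difference turned to -0.00385 (permutation p = 0.00140, adjusted 0.00840) since 149 libraries contributed less to end-to-end than to end-to-interior pairs although the mean was higher. Only the mean of the contributions is phi. Their median also depends on their skew, so it does not show that ends were linked less with each other. Against interior windows 40 to 45 Mb from the end the 2 differences were 0.00678 (permutation p = 0.0879, adjusted 0.528) and 0.00472 (p = 0.0528, adjusted 0.317). With the mean call of each library removed, end-to-end minus interior-to-interior linkage was 0.00349 (p = 0.0283, adjusted 0.170).

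The comparison with the opposite end of the chromosomes gave small differences. Centromere-proximal segments of different chromosomes had a mean phi of 0.0463 (SE 0.00569). End-to-end minus proximal-to-proximal linkage was -0.00122 (95% interval -0.0131 to 0.0107; permutation p = 0.845, adjusted 0.880). Distal ends with proximal segments of other chromosomes were lower, at 0.0380 (SE 0.00442). In 3 comparisons added after the values were seen, with their own adjustment, end-to-end minus end-to-proximal linkage was 0.00708 (95% interval 0.000382 to 0.0138; sign-flip permutation p = 0.0362, adjusted 0.0362), although only 103 libraries contributed more to end-to-end pairs and 146 less. This call was lost without any one of 5 experiments, among them pi-staining-and-freezing (0.00477, permutation p = 0.127), freezing-after-incubation (0.00653, p = 0.0695), full-collection-4np (0.00736, p = 0.0619), the PCR cycle experiment (0.00682, p = 0.0525) and the cresyl-violet experiment (0.00606, p = 0.0916). It was also lost without chromosome 6 (0.00585, p = 0.0848), chromosome 8 (0.00605, p = 0.107) or chromosome 11 (0.00675, p = 0.0625), and it turned to -0.00508 with the median over libraries (permutation p = 0.00860, adjusted 0.0129). Proximal-to-proximal minus proximal-to-interior linkage was 0.00877 (0.00103 to 0.0165; permutation p = 0.0197, adjusted 0.0296; higher in 111 and lower in 138 libraries), lost without wga-reagent-volumes (0.00801, p = 0.0519), the PCR cycle experiment (0.00744, p = 0.0593) or chromosome 2 (0.00688, p = 0.0788), and it turned to -0.00463 with the median over libraries (permutation p = 0.0489, adjusted 0.0489). As above, such medians are not values of phi. With the mean call of each library removed, both differences stayed past the threshold. End-to-end minus end-to-proximal linkage was then 0.00726 (permutation p = 0.0008, adjusted 0.0012). Proximal-to-proximal minus proximal-to-interior linkage was 0.00923 (p = 8e-05, adjusted 0.00012).

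A distal end was linked more with the proximal segment of its own chromosome than with those of other chromosomes. The distal end with its own proximal segment had a mean phi of 0.0671 (SE 0.00576), against 0.0380 with the proximal segments of other chromosomes. The difference of 0.0291 (95% interval 0.0209 to 0.0373; higher in 157 libraries, lower in 92) passed the sign-flip permutation test (p = 1e-05, the smallest that 100000 resamples give, adjusted 3e-05) and passed it under each alternative run. It sets pairs on one chromosome against pairs on different ones, so it cannot show a trait of ends. Other pairs of segments 50 Mb apart on one chromosome had a phi of 0.0957 (SE 0.00524). The own-chromosome phi was highest on the shortest autosome, chromosome 19 (0.105), and was 0.0477 on chromosome 1, the longest. It was lowest on chromosome 3 (0.0394). Over the 19 chromosomes it had an r of -0.554 and a rho of -0.514 with chromosome length, given as a description.

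Along its own chromosome the linkage of the distal segment did not depart measurably from that of other segments. At a separation of 5 Mb its phi with the next segment was 0.169 (SE 0.00805), against 0.167 (SE 0.00616) for the 440 other pairs of segments at that separation. At 20 Mb the values were 0.130 and 0.121, with a difference of 0.00814 (95% interval -0.00130 to 0.0176; sign-flip permutation p = 0.0924, adjusted over 10 separations 0.807). At 50 Mb they were 0.0949 and 0.0957. None of the 10 separations passed, adjusted p lay between 0.807 and 0.903, and 0 of the 10 had an unadjusted permutation p under 0.05.

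**Figure D4:**
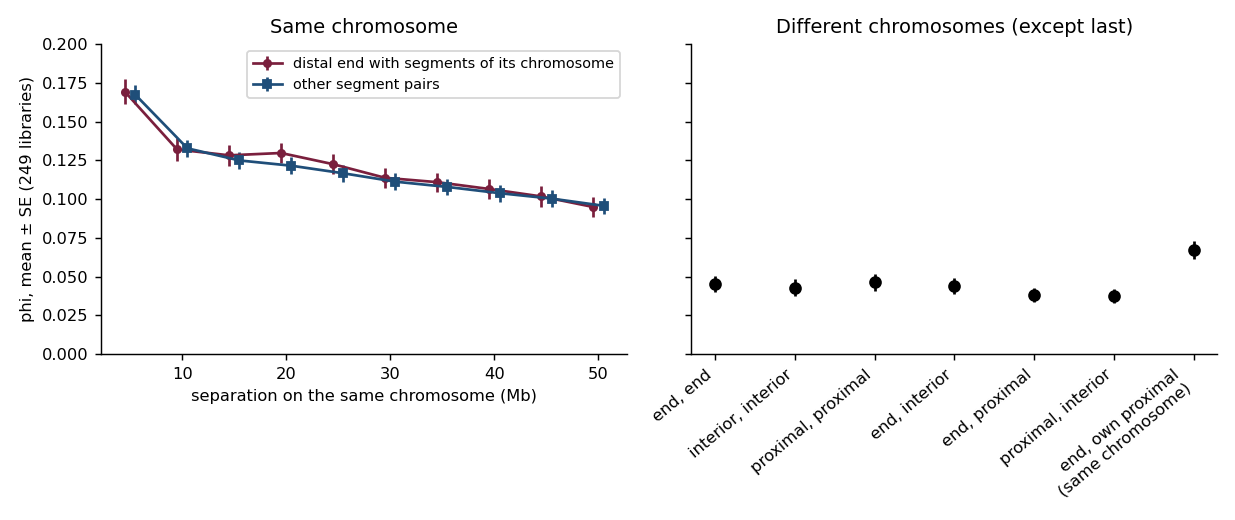
Left: phi between the distal 5 Mb and segments of its own chromosome (circles) and between other segments (squares), by separation (Mb), mean ± SE over libraries. Right: mean phi ± SE between kinds of segments on different chromosomes, and, in the last place, between both ends of one chromosome (0.0671); the end-to-end value is 0.0451.

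The pairs of ends had phi values from 4.42e-05 to 0.0961, with a median of 0.0459 and an SD over pairs of 0.0190. None reached 0.1, where 0.142% of all 108748 pairs of segments on different autosomes did (154 pairs). The interior pairs ran from -0.00554 to 0.0896. The highest pair was chromosomes 2 and 4 (phi 0.0961, SE 0.0220), whose ends were both present in 48 libraries where the product of their frequencies gives 37.3. The interiors of the same chromosomes had a phi of 0.0415. The pair of chromosomes 8 and 18 followed (0.0955, SE 0.0223; both present in 42 libraries against 27.9), then 8 and 11 (0.0892, SE 0.0198; 51 against 38.5) and 8 and 16 (0.0887, SE 0.0229; 42 against 28.6). The end of chromosome 8 was in 3 of these 4 pairs and had the highest mean phi with all other ends (0.0565). The lowest mean was that of chromosome 5 (0.0327). The lowest pairs were chromosomes 5 and 14 (4.42e-05, SE 0.0189; 35 libraries against 31.2) and 7 and 13 (0.00162, SE 0.0168; 32 against 36.9). The product does not allow for the differing coverage of the libraries, and even the pair of chromosomes 5 and 14 was above it. An excess over the product is thus not particular to the highest pairs. All these pairs were named for their rank and were not tested.

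**Figure D5:**
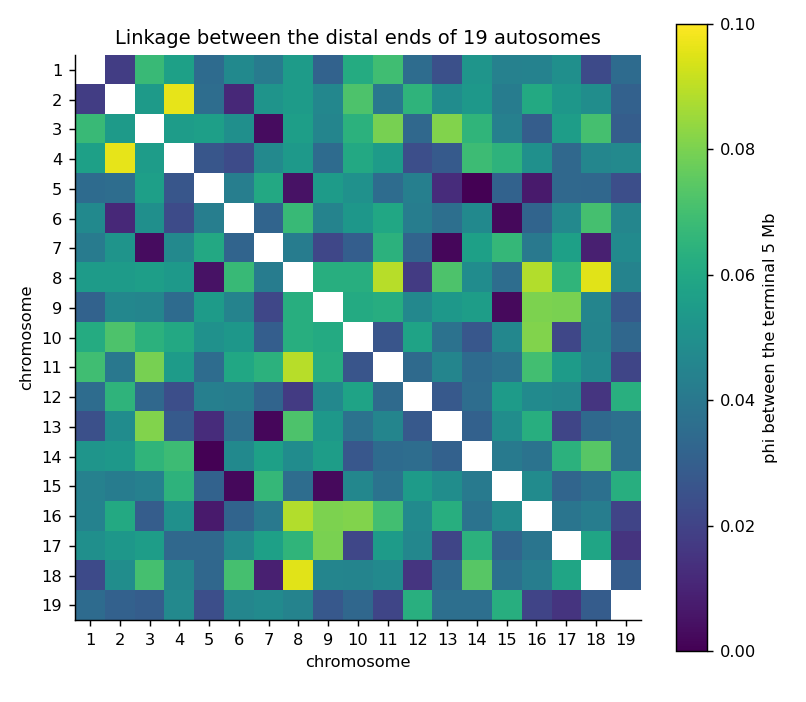
Mean phi between the terminal 5 Mb of each pair of the 19 autosomes over all libraries (colour scale from 0 to 0.1, both axes are chromosomes, the diagonal is left blank). The brightest cells are the pairs of chromosomes 2 and 4 (0.0961) and 8 and 18 (0.0955), and no pair reaches 0.1.

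No test between groups of libraries passed for the detection of ends relative to the interior, which does not show that the groups were alike. Over the 11 experiments the mean difference ran from -2.21 percentage points in the cresyl-violet experiment (SD 6.12, n = 26; lowest -14.0, median -2.55, highest 18.5) to 2.00 in that on PCR cycles (SD 3.90, n = 12; -5.47, 1.62 and 10.9). These ranges overlap, and the experiments did not pass a permutation test of the F statistic (F = 0.928, p = 0.509). In the cresyl-violet experiment the stained arm was at -2.76 (SD 3.17, n = 16; 3 libraries above 0). The unstained arm was at -1.335 (SD 9.27, n = 10; 4 above 0) and held the highest value, 18.5. Their difference was -1.43 (permutation p = 0.597, adjusted 0.894). In the largest experiment, full-collection-4np, the difference was 0.653 (SD 5.13, n = 54; -11.4, -0.126 and 19.4). Experiment and any batch that coincides with it cannot be told apart. Of 11 contrasts between arms of the same experiment, none passed, with 0 at an unadjusted permutation p under 0.05 by means and 1 by medians. The contrast with the lowest p was protocol_a (1.91 ± 2.96, SD, n = 10; 8 libraries above 0) against protocol_b (-0.681 ± 3.62, n = 11; 4 above 0), a difference of 2.59 (permutation p = 0.0916, adjusted 0.548). Next came 1ul-mdc-pk (-1.84 ± 1.87, n = 5) against 2ul-mdc-pk (0.274 ± 1.86, n = 6), a difference of -2.12 (exact permutation p = 0.0996, adjusted 0.548), with the volumes as the titles give them. Terminal windows were positive in libraries of the same mean coverage as interior windows, 22.5% of all windows in both sets.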

How the data were processed

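GAM libraries were made from 46C cells by laser microdissection and whole genome amplification. Per the methods, the authors aligned reads to mm9 with Bowtie2, removed duplicates with Samtools and had GAMtools call a window from 4 reads upward. The deposited table used here holds other values than counts, namely presence calls of 0 or 1 per 40 kb window for 249 libraries that passed quality control. This table keeps no reads, so depth is unknown and an absent window cannot be told from one with too few reads. Chromosome lengths matched the NCBIM37 assembly, from which GC content, N bases, repeats and GENCODE vM1 genes were taken.

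Detection, presence, D′ (windows positive in at least 25 libraries) and phi were computed as sums of contributions of each library. Libraries are the units of two-sided sign-flip permutation tests (100000 resamples) with Benjamini-Hochberg adjustment and a threshold of 0.05, and arms were compared by exact tests where an arm held under 10 libraries. Intervals are means ± normal 95% bounds over libraries. Code was tested on simulated data (Python 3.11.15, numpy 2.4.6, scipy 1.17.1, pandas 2.3.3). No pair of libraries had identical calls. The members, lists and tests were chosen with earlier results of these data known, and comparisons called added came after the values of the planned ones. Named ends, pairs and windows were the 3 highest and 3 lowest differences of each kind, the 4 highest and 2 lowest of the 171 pairs, the 3 most and 3 least detected windows and the gene nearest each end. Some items that this rule names are not reported here.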

Additional observations from a re-analysis of the deposited data

Results flagged for a closer look

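In the arm with 23 PCR cycles, 1 of 5 libraries stood apart from the others by the gap in terminal minus interior detection. It was at 10.9 percentage points, while the arm's median was 1.56 and its lowest value 1.05. This was the only such gap in 9 groups of 4 to 10 libraries. The rule is set to flag about 1 group in 20 by chance, a rate that was not checked on these data. Leaving out single libraries moved the contrast of 23 with 25 cycles between 0.198 and 5.61 and that of 20 with 23 cycles between -3.41 and -0.947, none of them under 0.05 in an exact permutation test (lowest p = 0.381 and 0.229).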

How the results depend on the processing

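The 6 planned differences between ends and other segments lay near 0, so that their sign turned easily, and apart from the median setting below no alternative brought one past the threshold. Terminal minus interior detection was 0.0254 with segments of 2.5 Mb, 0.280 against windows 10 to 15 Mb from the end and 0.756 against those 40 to 45 Mb from it, and it lay between -0.509 and -0.0104 without single experiments or chromosomes. The presence count was 0.0884 and 0.353 against the same 2 interiors, and -0.185 to 0.0359 without single experiments or chromosomes. Cis linkage differed by -0.00115 and -0.00470 against these interiors, and by -0.00261 to 0.00465 in the leave-one-out runs. In those runs end-to-end minus interior-to-interior linkage was -0.000570 to 0.00473, end-to-end minus end-to-interior linkage -0.000223 to 0.00267, and end-to-end minus proximal-to-proximal linkage -0.00548 to 0.00197. The last was 0.00157 as a correlation of percent per segment and 0.000555 as a median. With medians over libraries, end-to-end minus end-to-interior linkage was -0.00385, end-to-end minus end-to-proximal linkage -0.00508 and proximal-to-proximal minus proximal-to-interior linkage -0.00463, each past the threshold in the other direction. Such medians are not values of phi and depend on the skew of the contributions, so they do not show lower linkage. In the leave-one-out runs the 2 last-named differences gave 0.00477 to 0.00899 and 0.00646 to 0.0106. The 4 ends called for detection became 0 with windows positive in at least 1 library and 0 with windows positive in at least 25, where 57 and 41 of all segments were called against 92. The count of segments called for cis linkage went from 0 to 3 with a minimum of 40 libraries and to 1 with phi, none of them an end. The causes were not tested. The experiments passed under no alternative, nor did any contrast of arms. The linkage of an end with its own proximal segment, set against that with proximal segments of other chromosomes, passed in all 36 alternatives. No paired analysis was possible because the labels give no replicate numbers that pair libraries across groups. Presence calls carry no read depth, so lower detection and lower depth cannot be separated.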

Other observations

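Outside the autosomes, the distal 5 Mb of chromosome X were positive in 9.09% ± 13.5 of windows (SD over all libraries) and the windows 20 to 25 Mb from that end in 6.35% ± 11.2. The difference was 2.75 percentage points (SE 0.922, sign-flip permutation p = 0.00283, 1 chromosome end chosen after its values were seen and not adjusted).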
